A study of Mus musculus with 28 samples.

Results

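The receptors of the bone morphogenetic protein (BMP), activin and transforming growth factor beta (Tgfb) ligands were followed in mouse small-intestinal organoids and in intestinal mesenchymal cells. They are 10 genes taken by name: the type I receptors Bmpr1a, Bmpr1b, Acvr1, Acvr1b and Tgfbr1, the type II receptors Bmpr2, Acvr2a, Acvr2b and Tgfbr2, and the coreceptor Tgfbr3. All 10 were listed in each deposited table, among 29413 genes in the BMP table and 55416 in each of the TGFb and mesenchymal tables. Per its title, the series asks which Tgfb superfamily members govern the last differentiation step of enterocytes at the villus tip. Organoids, cultures of epithelium that start from crypts seeded in a matrix, came from wild-type C57BL/6 mice. All of them, controls included, grew in a medium named ENR, and ligands were added as recombinant proteins at 500 ng/ml for 24 h. The BMP table held 4 untreated control samples (replicates II, III, IV and VI), 4 with BMP2 (II, III, IV and VI), 3 with BMP3 (II, III and IV) and 3 each with BMP4, BMP5 and BMP7 (II, III and VI). The TGFb table held organoid samples I, II and III of each of 2 groups, 3 untreated and 3 given Tgfb. The mesenchymal table held 2 samples from the duodenum of a PdgfraH2BeGFP mouse, in which Pdgfra-expressing cells carry a green nuclear protein. 1 sample was freshly isolated mesenchymal cells (siMCs-FRESH). The other (siMCs-HIGH) was cells immortalised with a retrovirus carrying HPV16-E6 and sorted for high eGFP.

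Ligands of this superfamily bind a complex of 2 classes of membrane kinases. The type II receptor phosphorylates the type I receptor, which then phosphorylates Smad proteins that act in the nucleus. Bmpr1a, Bmpr1b and Acvr1 (also called ALK2) act through Smad1, Smad5 and Smad9, whereas Acvr1b (ALK4) and Tgfbr1 (ALK5) act through Smad2 and Smad3. Bmpr2 serves BMPs, Acvr2a and Acvr2b serve activins and several BMPs, and Tgfbr2 serves Tgfb. Tgfbr3 (betaglycan) presents ligand without a kinase of its own. In the intestine BMP signalling is known to be low around crypt bases and high on villi, and mesenchymal cells under the epithelium are a known source of its ligands.

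The upstream sequences of Acvr1, Bmpr2 and Tgfbr2 are shown because of their changes with 4 ligands, namely Tgfb, BMP2, BMP5 and BMP7. With each of these ligands the 3 receptors gave the highest changes and passed the test. Acvr1 and Bmpr2 also passed with BMP4, and Tgfbr2 did not. Each is the 250 bases before the annotated start, read on the gene's strand, from RefSeq on GRCm38.p6, which is not the GRCm39 build named in the submitters' processing notes. Entries matched 9 of the 10 receptors by symbol. Capitals mark the sequence GGCGCC, a motif known from BMP Smad binding, and CAGAC, the Smad box, which appears as GTCTG on the other strand.
Acvr1, chr2:58566829-58567078, minus strand: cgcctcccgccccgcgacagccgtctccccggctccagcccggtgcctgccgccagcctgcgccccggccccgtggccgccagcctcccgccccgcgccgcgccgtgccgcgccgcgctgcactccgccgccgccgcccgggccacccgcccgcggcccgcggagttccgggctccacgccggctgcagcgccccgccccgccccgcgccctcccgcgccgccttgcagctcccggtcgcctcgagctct
Bmpr2, chr1:59764029-59764278, plus strand: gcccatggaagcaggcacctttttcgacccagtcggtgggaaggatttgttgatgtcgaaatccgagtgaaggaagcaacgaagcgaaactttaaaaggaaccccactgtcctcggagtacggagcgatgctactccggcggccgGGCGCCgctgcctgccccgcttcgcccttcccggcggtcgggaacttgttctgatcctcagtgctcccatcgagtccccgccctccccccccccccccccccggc
Tgfbr2, chr9:116175364-116175613, minus strand: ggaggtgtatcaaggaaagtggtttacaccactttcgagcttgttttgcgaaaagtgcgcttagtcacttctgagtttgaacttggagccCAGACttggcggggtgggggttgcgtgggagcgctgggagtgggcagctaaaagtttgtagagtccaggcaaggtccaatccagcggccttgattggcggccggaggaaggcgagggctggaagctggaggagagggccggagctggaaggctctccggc
The Acvr1 window held neither motif on either strand and was 85.6% G or C. The Bmpr2 window held 1 GGCGCC, whose first base lay 105 bases before the start, and no CAGAC. The Tgfbr2 window held 1 CAGAC, whose first base lay 160 bases before the start, and no GGCGCC. Among 32851 promoter windows of the same length, 9.59% held GGCGCC and 42.2% held CAGAC on either strand. The longer repeat GTCTAGAC was in none of these 3 windows and in 0.167% of all. These matches describe letters, not sites in use.

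The BMP table gives normalized counts, which are gene counts divided by 1 factor per sample, from 21354956 to 24781434 recovered reads per sample. The other tables give TPM, a unit scaled by gene length and library total, and their depth is unknown. Changes were tested by limma on log2(value + 1), with Benjamini-Hochberg adjustment over all genes tested and a threshold of 0.05. Nothing in the labels says that replicates came from separate cultures or animals, so p-values measure the spread between these samples. In the organoids the 8 epithelial markers were all above the low-value filter, with a summed level of 127200 to 144700 normalized counts in controls and 698500 to 889900 with BMP2. Of 9 mesenchymal markers, Dcn and Lum were not listed in the BMP table and Col3a1 was at 0 in controls. The mesenchymal sum was 133.9 to 219.9 normalized counts in controls, while BMP2 samples lay between 71.68 and 95.31, BMP4 samples between 27.29 and 47.79, BMP5 samples between 139.3 and 188.5 and BMP7 samples between 70.78 and 107.7. Vim held most of the control sum, and its mean went from 149.2 to 34.52 with BMP2. Pdgfrb fell as well, from 9.387 to 0.6125. Means of Pdgfra (0.6667 to 22.95), Col1a1 (5.926 to 15.93) and Col1a2 (1.538 to 4.728) were higher with BMP2. Col3a1 and Twist1 stayed near 0. In both mesenchymal samples Cdh1, Cldn7, Elf3 and Vil1 were at 0 TPM. The 8 epithelial markers summed to 33.81 TPM in fresh and 6.733 TPM in immortalised cells, with 3 and 1 of them above the filter. The mesenchymal markers summed to 17570 TPM in fresh and 5550 TPM in immortalised cells. The fresh sample also held markers of mesothelium (120.4 TPM), glia and neurons (40.86 TPM) and endothelium (21.43 TPM). In the immortalised sample these sums were 0.2806, 48.23 and 1.726 TPM. There only 1 of the 4 glia and neuron markers was above the filter, and Sox10 was at 0. Smooth muscle and myofibroblast markers summed to 10560 TPM in fresh and 14040 TPM in immortalised cells. The summed crypt stem and cycling markers moved with the ligands too. Their sum over 6 genes was 110700 to 139000 normalized counts in controls, 1247 to 2428 with BMP2 and 7179 to 10430 with BMP4. BMP5 samples lay between 36140 and 88670 and BMP7 samples between 33000 and 37330. Olfm4 held most of the control sum, with a mean of 92700. The Ascl2 mean was higher with BMP5 (354.3) and BMP7 (383.7) than in controls (311.5). Means of Axin2, Lgr5, Olfm4, Smoc2 and Mki67 were lower with both. Of these, Axin2 and Mki67 overlapped with controls under both ligands, and Lgr5 with BMP5. The part of these marker shifts in the receptor values was not tested. In such bulk samples, fewer cells of a type and less RNA per cell cannot be told apart.

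Untreated epithelium carried transcripts of 8 of the 10 receptors at a level that could be tested, and Bmpr1a, a BMP type I receptor, was the highest of them. In the 3 controls of the TGFb table, replicates III, II and I, Bmpr1a (ENSMUSG00000021796) stood at 46.89, 43.56 and 43.57 TPM. The activin type I receptor Acvr1b (ENSMUSG00000000532) stood at 20.43, 19.10 and 17.84 TPM. Tgfbr2 (ENSMUSG00000032440) stood at 17.99, 17.57 and 16.35 TPM, overlapping with Acvr1b. Tgfbr1 (ENSMUSG00000007613), its type I partner, stood lower at 15.63, 16.29 and 14.51 TPM, and did not overlap with Tgfbr2. Acvr2a (ENSMUSG00000052155) stood at 11.06, 13.04 and 10.39 TPM. Bmpr2 (ENSMUSG00000067336) stood at 9.42, 8.72 and 7.01 TPM. Acvr1 (ENSMUSG00000026836) overlapped with Bmpr2, at 8.16, 7.96 and 7.73 TPM. The lowest tested receptor was Acvr2b (ENSMUSG00000061393), at 2.57, 2.62 and 2.59 TPM. The order in untreated epithelium therefore ran from Bmpr1a through Acvr1b, Tgfbr2, Tgfbr1, Acvr2a, Bmpr2 and Acvr1 to Acvr2b, and of the neighbours in it Acvr1b with Tgfbr2 and Bmpr2 with Acvr1 overlapped.

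Bmpr1b (ENSMUSG00000052430) and Tgfbr3 (ENSMUSG00000029287) were at the limit of detection in epithelium. Bmpr1b had a read in 3 of the 20 samples of the BMP table, at most 3 reads in a sample and 6 reads in all. It was listed at 0 TPM in all 3 controls of the TGFb table and at 0.009823 TPM in 1 Tgfb sample. Tgfbr3 had reads in 18 of the 20 samples, at most 4 in a sample and 43 in all, and 0.02 to 0.04 TPM in the TGFb controls. Both genes stayed under the low-value filter and entered no test. In the mesenchymal cells both were present: Bmpr1b at 7.34 TPM in fresh and 8.54 TPM in immortalised cells, and Tgfbr3 at 9.86 and 13.90 TPM. Such low read numbers cover counting error only, and at this depth an epithelial level below a few reads was not detectable.

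**Figure D1:**
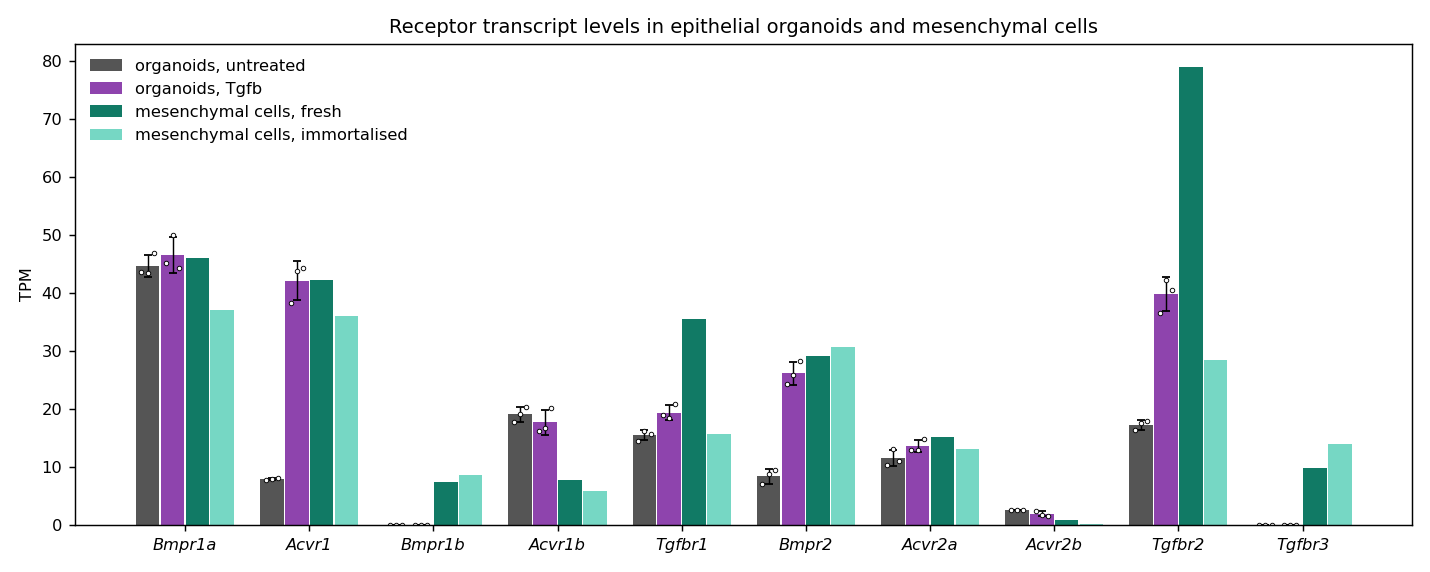
Level in TPM (vertical axis) of the 10 receptors (horizontal axis) in untreated organoids, Tgfb-treated organoids (bars are means of 3 samples, whiskers SD, dots samples) and in 1 fresh and 1 immortalised mesenchymal sample. Bmpr1a is nearly level across the 4 groups, Acvr1 is low in untreated organoids only, and Bmpr1b and Tgfbr3 are seen in mesenchymal cells.

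Fresh mesenchymal cells had a different order, with Tgfbr2 first. It stood at 79.06 TPM, followed by Bmpr1a at 46.15, Acvr1 at 42.23, Tgfbr1 at 35.52 and Bmpr2 at 29.13 TPM. Acvr2a stood at 15.09, Acvr1b at 7.67 and Acvr2b at 0.80 TPM. These are 1 sample and a separately scaled table, so levels are set beside those of the organoids with no test. On the log2(TPM + 1) scale several receptors were lower by over 2-fold in control organoids than in fresh mesenchymal cells. These were Acvr1 (log2 difference -2.27), Tgfbr2 (-2.13), Bmpr2 (-1.69) and Tgfbr1 (-1.15). Bmpr1b, listed at 0 in the organoids, and Tgfbr3 (-3.40) were lower too. They passed the low-value filter only through the fresh sample, so their direction was fixed by the filter and they are not counted. Acvr1b was past 2-fold in the other direction, with a log2 difference of 1.21. Acvr2b, at 0.99, lay just short of 2-fold on this scale, and was past it with a pseudocount of 0.1 (1.58) and with median-ratio scaling (1.10). Acvr2b passed the low-value filter only through the organoids, so its direction too was fixed by the filter and it is not counted. Bmpr1a differed by -0.05 and Acvr2a by -0.37. Median-ratio scaling put Tgfbr1 at -0.95, short of 2-fold, and turned Bmpr1a to 0.16. The value of Tgfbr3, near 0 in organoids, was -6.26 with a pseudocount of 0.1. Of 14387 genes set side by side in the same way, 29.4% were past 2-fold lower in organoids and 18.3% past 2-fold higher. These shares include genes that passed the filter through 1 side only, such as Bmpr1b, Tgfbr3 and Acvr2b.

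Of the receptors above the low-value filter, both Tgfb receptors differed most between immortalised and fresh cells. Tgfbr2 stood at 28.39 TPM against 79.06 in fresh cells, a log2 difference of -1.45, and Tgfbr1 at 15.69 against 35.52 TPM, a log2 difference of -1.13. These 2 of the 9 receptors above the filter were past 2-fold lower, where 10.7% of 13652 genes were lower by that much and 6.26% higher. Bmpr1a (37.14 TPM), Acvr1 (36.06), Bmpr2 (30.78), Acvr2a (13.17) and Acvr1b (5.80) lay within 2-fold of the fresh sample. Acvr2b stood at 0.23 TPM. With 1 sample of each kind, this difference has no replicate check, and immortalisation and the sort for eGFP cannot be told apart.

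BMP2, a ligand of the BMP2 and BMP4 pair, raised the transcripts of 6 of the 8 receptors tested and lowered none (limma, adjusted p under 0.05), and Acvr1 was the most changed. Over all 14746 genes tested, 36.8% were higher and 38.4% lower with BMP2. The 6 of 8 called is thus close to the 75.1% of genes called in either direction. All 6 were higher with the authors' scaling. With every sample set to the same total, 4 of these 6 were still called higher. Then 2 receptors outside the 6, Bmpr1a and Acvr2b, were called lower. With quantile normalization 5 of the 6 were called higher, and Bmpr1a was called lower. The median log2 change of the 8 receptors was 0.65, beside -0.03 over all genes.

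Acvr1 encodes a type I receptor known to serve BMP7 and related ligands. It measured 376, 411, 372 and 388 normalized counts in control replicates II, III, IV and VI and 2730, 2630, 2610 and 2760 in the BMP2 samples of the same numbers. The groups lay far apart, and the spread within each was small. The mean rose 6.94-fold, from 386.8 ± 17.5 to 2682 ± 73.7 normalized counts (SD, n = 4 each), a log2 change of 2.79 with an SE of 0.11 (limma adjusted p = 2.81e-13).

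Bmpr2, the BMP type II receptor, measured 1800, 1840, 2070 and 1440 normalized counts in controls and 6350, 6700, 8400 and 5890 with BMP2. Every BMP2 sample lay above every control. The log2 change was 1.93 with an SE of 0.14 (limma adjusted p = 5.52e-10), or 3.82-fold between means.

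The Tgfb receptor pair rose with BMP2 as well. Tgfbr2 measured 3430, 2670, 2180 and 2190 normalized counts in controls and 6910, 6710, 5110 and 5630 with BMP2. Tgfbr1 measured 1780, 1360, 1440 and 1360 in controls and 2830, 3080, 2410 and 2260 with BMP2. Neither gene overlapped between the groups. The log2 change was 1.23 for Tgfbr2 (SE 0.17, limma adjusted p = 2.63e-06) and 0.83 for Tgfbr1 (SE 0.14, limma adjusted p = 3.42e-05).

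The activin receptors moved less. Acvr2a measured 1020, 970, 1090 and 1050 normalized counts in controls and 1280, 1340, 1430 and 1480 with BMP2, without overlap. Its log2 change was 0.42 (SE 0.07, limma adjusted p = 3.48e-05). Acvr1b measured 1160, 1390, 1620 and 1560 in controls and 1630, 2140, 2060 and 2100 with BMP2, where the lowest BMP2 sample lay just above the highest control. Its log2 change was 0.47 (SE 0.14, limma adjusted p = 0.00416).

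Bmpr1a and Acvr2b did not pass the test with BMP2. Bmpr1a measured 4940, 4660, 4000 and 4250 normalized counts in controls and 4120, 4980, 4630 and 4790 with BMP2, a log2 change of 0.05 with a 95% interval of -0.14 to 0.25 (limma adjusted p = 0.606). Acvr2b measured 126, 124, 127 and 89.2 in controls and 92.0, 116, 125 and 78.5 with BMP2, a log2 change of -0.19 with an interval of -0.56 to 0.18 (limma adjusted p = 0.344). Both pairs of groups overlapped.

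These calls depend in part on how samples are scaled, because setting every sample to the same total, in place of the authors' factors, shifted the log2 median of all genes by -0.45 with BMP2 and -0.39 with BMP4. With the same total, Acvr1 (2.33), Bmpr2 (1.47), Tgfbr2 (0.77) and Tgfbr1 (0.37) were still called higher with BMP2. Acvr1b (0.01, limma adjusted p = 0.94) and Acvr2a (-0.04, limma adjusted p = 0.617) were not, Bmpr1a was called lower (-0.41, limma adjusted p = 0.000745), and so was Acvr2b (-0.64, limma adjusted p = 0.00432). Relative to the median of all genes, which was -0.48 there, Bmpr1a lay 0.08 above it and Acvr2b 0.16 below. Quantile normalization left the median of all genes near 0 and gave -0.47 for Bmpr1a (limma adjusted p = 7.37e-05), so the direction of Bmpr1a turned with the scaling.

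**Figure D2:**
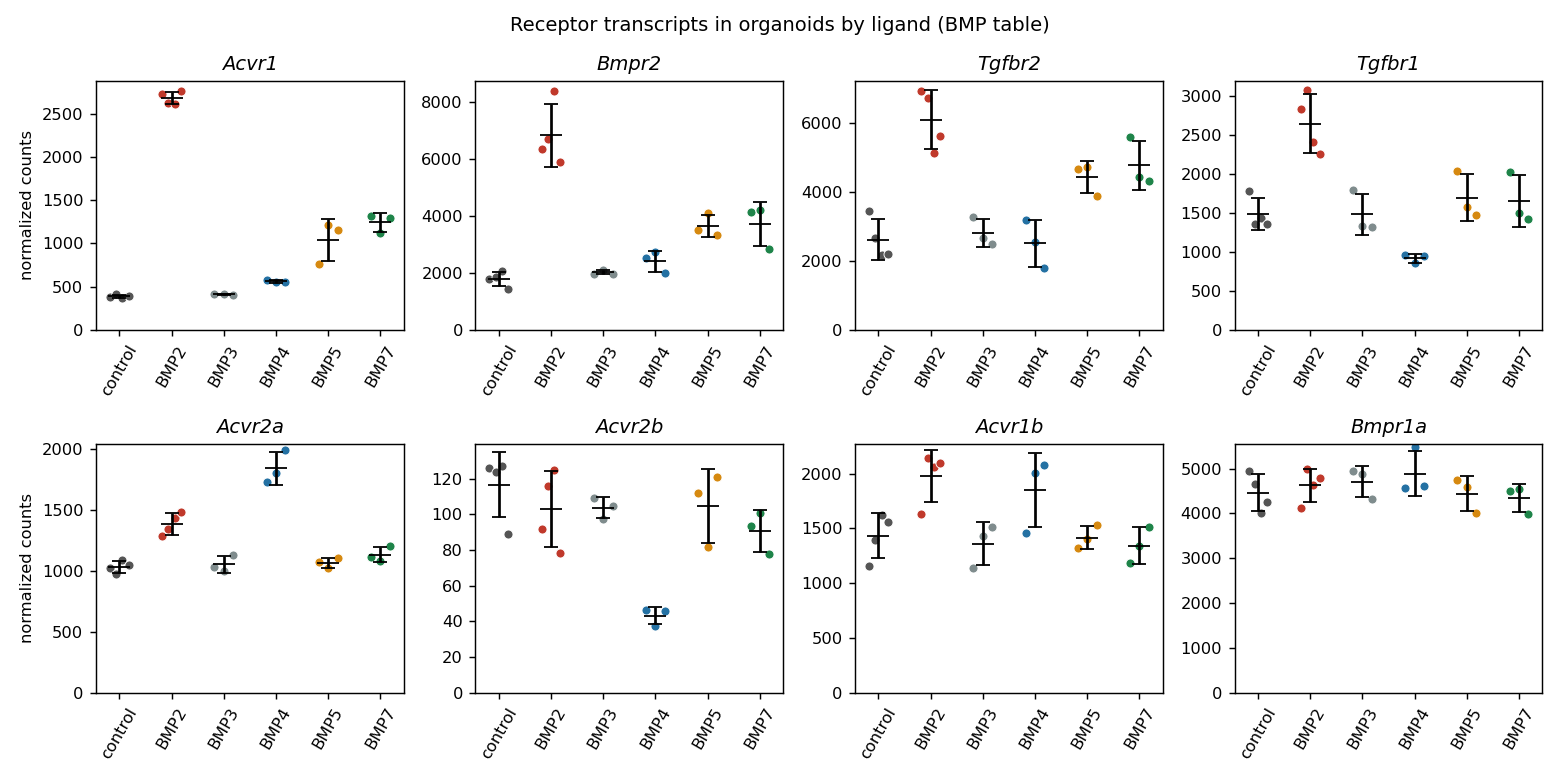
Normalized counts (vertical axis, from 0) of the 8 tested receptors in the 20 organoid samples of the BMP table, by ligand (dots are samples, the dash and whiskers are mean and SD, n = 3 or 4). The means of Acvr1, Bmpr2 and Tgfbr2 stand highest with BMP2, and those with BMP5 and BMP7 lie between BMP2 and the controls. In Tgfbr2, BMP7 replicate II (5580) lies above BMP2 replicate IV (5110). BMP4 stands apart in Tgfbr1, Acvr2a and Acvr2b.

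BMP4, the closest relative of BMP2, gave another pattern: Acvr2a rose most, Acvr2b and Tgfbr1 fell, and Acvr1 rose far less than with BMP2. By limma 4 receptors were higher and 2 lower, where 33.7% of all genes were higher, 31.4% lower and 65.1% either. The median log2 change of the 8 receptors was 0.25, beside 0.04 over all genes. In the same samples 6 enterocyte markers summed to 359300 to 419000 normalized counts, against 46330 to 88780 in controls and 82360 to 161600 with BMP2. The BMP2 sum was mostly Krt20, whose mean went from 2088 in controls to 63520. Means of Apoa4 (8788 to 20380) and Alpi (10850 to 15000) were higher with BMP2. Those of Sis (24580 to 1600), Fabp1 (13820 to 1943) and Apoa1 (5698 to 5232) were lower. The 3 goblet markers summed to 19420 to 37290, against 6010 to 11470 in controls and 5432 to 15500 with BMP2. With BMP2 the mean of Clca1 was higher (1408 to 4968), and those of Muc2 (3900 to 1619) and Tff3 (3200 to 2975) were lower. The part of these shifts in the receptor values was not tested.

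The paired activin type II receptors went in opposite directions. Acvr2a measured 1730, 1800 and 1990 normalized counts with BMP4, against 970 to 1090 in controls, a log2 change of 0.83 (SE 0.08, limma adjusted p = 3.63e-08). Acvr2b measured 46.2, 37.6 and 45.5 with BMP4, against 89.2 to 127 in controls. The BMP4 samples of Acvr2b all lay below the lowest sample of every other group. Its log2 change was -1.41 (SE 0.19, limma adjusted p = 3.24e-06). Tgfbr1 measured 955, 852 and 949 normalized counts with BMP4, all below the lowest control of 1360. It fell by 0.69 on the log2 scale (SE 0.15, limma adjusted p = 0.000706). These 3 calls held in all 16 alternative settings, same total and quantile scaling included.

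Acvr1 measured 582, 554 and 550 normalized counts with BMP4, all above the highest control of 411. Its log2 change was 0.54 (SE 0.12, limma adjusted p = 0.000507), and 0.14 with the same total (limma adjusted p = 0.275). Bmpr2 measured 2510, 2720 and 1990 with BMP4, of which the last lay within the controls, a log2 change of 0.43 (SE 0.16, limma adjusted p = 0.0214). This call was lost without control VI (adjusted p = 0.0772), BMP4 II (adjusted p = 0.0695) or BMP4 III (adjusted p = 0.108). Bmpr2 was at 0.03 with the same total (adjusted p = 0.895), 0.12 with quantile normalization (adjusted p = 0.555) and 0.33 by edgeR (adjusted p = 0.0788). Acvr1b measured 1460, 2010 and 2080 with BMP4, with overlap, a log2 change of 0.36 (SE 0.15, limma adjusted p = 0.0369). This call was lost without control II (adjusted p = 0.126), control III (0.0674), BMP4 III (0.139) or BMP4 VI (0.163). It was also lost with the same total (-0.04, adjusted p = 0.843), quantile normalization (0.11, 0.544), edgeR (0.27, 0.129), no filter (0.36, 0.0598) and the compared groups alone (0.36, 0.063).

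Tgfbr2 and Bmpr1a did not pass with BMP4. Tgfbr2 measured 3170, 2550 and 1800 normalized counts, a log2 change of -0.07 with a 95% interval of -0.46 to 0.31 (limma adjusted p = 0.742), and -0.47 with the same total (limma adjusted p = 0.0309). Bmpr1a measured 4570, 5480 and 4620, a log2 change of 0.13 with an interval of -0.08 to 0.34 (limma adjusted p = 0.258). With the same total Bmpr1a was at -0.27 (limma adjusted p = 0.0268).

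Set directly against BMP4, BMP2 gave higher Acvr1, Tgfbr1, Bmpr2, Tgfbr2 and Acvr2b and lower Acvr2a (limma, 5 higher and 1 lower of 8, where 33.4% of all genes were higher, 33.4% lower and 66.8% either). None of these 6 overlapped between BMP2 and BMP4, and the share of all genes without overlap was not counted. The log2 difference was 2.25 for Acvr1 (SE 0.12, limma adjusted p = 1.01e-11), 1.52 for Tgfbr1 (SE 0.15, limma adjusted p = 7.12e-08) and 1.5 for Bmpr2 (SE 0.16, limma adjusted p = 8.63e-08). It was 1.31 for Tgfbr2 (limma adjusted p = 4.71e-06), 1.22 for Acvr2b (limma adjusted p = 1.56e-05) and -0.41 for Acvr2a (limma adjusted p = 0.00013). All 6 calls held in the 16 alternative settings. For Bmpr1a the difference was -0.08 with a 95% interval of -0.29 to 0.13, and for Acvr1b 0.11 with an interval of -0.20 to 0.42, which bounds but does not exclude a difference.

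BMP5 and BMP7, ligands of another BMP subgroup, each raised Acvr1, Bmpr2 and Tgfbr2 and no other receptor passed. Over all genes, 16.5% were higher and 9.87% lower with BMP5 (26.3% either), and 19.2% higher and 13.2% lower with BMP7 (32.4% either). Acvr1 measured 763, 1210 and 1150 normalized counts with BMP5 in replicates II, III and VI, and 1320, 1120 and 1300 with BMP7. All 6 samples lay above the controls and below every BMP2 sample. The log2 change was 1.40 with BMP5 (SE 0.12, limma adjusted p = 1.68e-07) and 1.68 with BMP7 (SE 0.12, limma adjusted p = 2.28e-08).

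Bmpr2 measured 3520, 4100 and 3330 normalized counts with BMP5 and 4150, 4200 and 2830 with BMP7, again between controls and BMP2. The log2 change was 1.04 with BMP5 (limma adjusted p = 7.22e-05) and 1.05 with BMP7 (limma adjusted p = 4.45e-05). Tgfbr2 measured 4650, 4720 and 3890 with BMP5 and 5580, 4420 and 4300 with BMP7, all above the controls. The log2 change was 0.78 with BMP5 (limma adjusted p = 0.00418) and 0.88 with BMP7 (limma adjusted p = 0.0012). All of these calls held in each of the 16 alternatives run for each ligand.

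The other 5 receptors overlapped with controls under both ligands. Tgfbr1 measured 2040, 1580 and 1470 normalized counts with BMP5 and 2030, 1500 and 1420 with BMP7, with log2 changes of 0.19 and 0.14. In Bmpr1a, Acvr1b, Acvr2a and Acvr2b the log2 changes ran from -0.16 to 0.04 with BMP5 and from -0.35 to 0.13 with BMP7. Same-numbered samples deviated together in these comparisons, and with the replicate number as a block Acvr2a passed for BMP7 (log2 change 0.15, limma adjusted p = 0.0283; without the block 0.13, adjusted p = 0.213).

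BMP5 and BMP7 were not distinguished by any receptor. By limma 0 of 8 differed, where 0.0136% of all genes differed in either direction, 0.00678% higher and 0.00678% lower. At an unadjusted p under 0.05, 1 of 8 differed, beside 2.35% of all genes. On the recovered reads 0 receptors differed by edgeR, which called 4 genes in all, and 0 by DESeq2, which called 23. The largest difference was in Acvr1, at -0.29 (log2, BMP5 minus BMP7) with a 95% interval of -0.55 to -0.02 (limma adjusted p = 1), and at -0.08 without BMP5 II. For Bmpr2 the difference was -0.01 with an interval of -0.36 to 0.34, and for Tgfbr2 -0.10 with an interval of -0.52 to 0.31, so differences within those bounds are not excluded.

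BMP3 is known as an atypical BMP that can act against others, and no receptor passed the test with it. By limma 0 of 8 passed, where 0% of all genes passed. At an unadjusted p under 0.05 there were 0 of 8, beside 0.746% of all genes. On the recovered reads edgeR called 0 genes and DESeq2 1, and neither called a receptor. The log2 changes ran from -0.15 in Acvr2b to 0.19 in Bmpr2. Acvr1 measured 420, 411 and 403 normalized counts with BMP3, and Bmpr2 1980, 2110 and 1980.

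**Figure D3:**
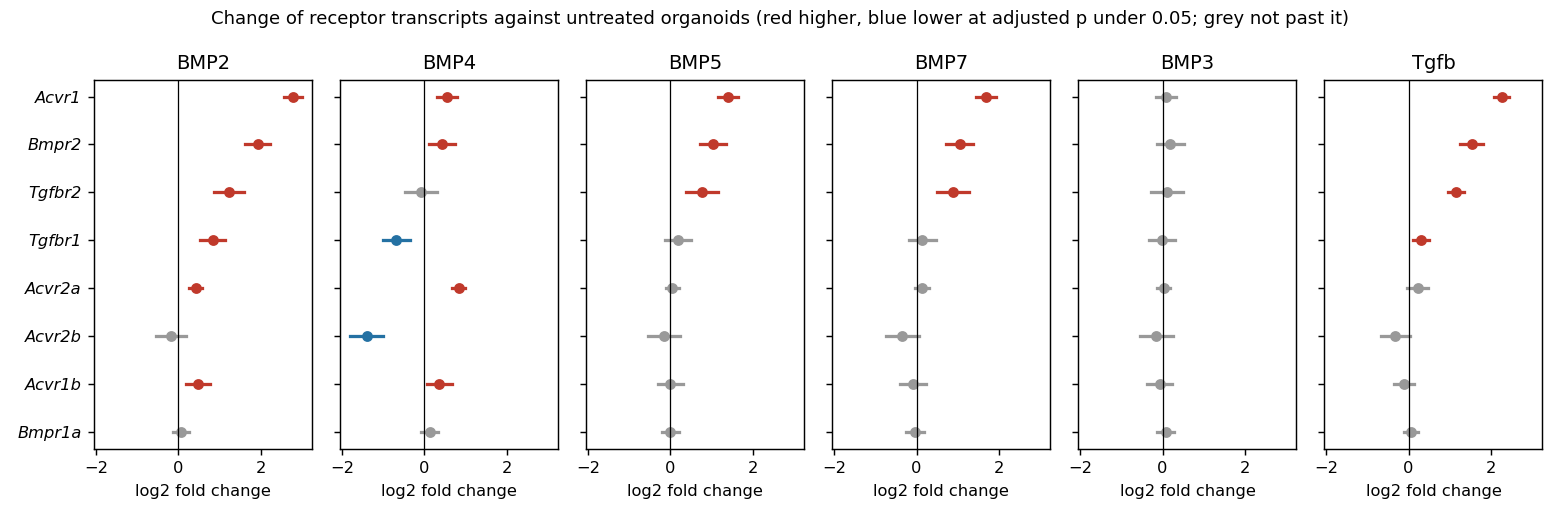
Log2 fold change of the 8 tested receptors against the untreated organoids of the same table, for 5 BMP ligands and Tgfb (dot is the estimate on the log2(value + 1) scale, line is the 95% interval, red higher and blue lower at an adjusted p under 0.05, grey not past it). Acvr1 leads with BMP2, BMP5, BMP7 and Tgfb, Acvr2a and Acvr2b separate with BMP4, and BMP3 stays near 0.

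A single test of whether the 5 BMP ligands differ among each other passed for 7 of the 8 receptors (limma moderated F-test, where 84.1% of all genes passed). Acvr1 gave the smallest value (adjusted p = 5e-12) and Bmpr1a was the receptor that did not pass (adjusted p = 0.562). BMP3, with which no gene passed against control, is among the 5. A pass can therefore rest on BMP3 differing from the others, and does not by itself show that the other ligands differ. The 5 comparisons with control use the same 4 control samples, so their likeness to each other is not a result.

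Tgfb raised 4 receptors and lowered none of the 8 tested (limma), where 27.4% of 12959 genes were higher, 29.3% lower and 56.7% either. Acvr1 stood at 8.16, 7.96 and 7.73 TPM in controls III, II and I and at 44.31, 43.84 and 38.36 TPM with Tgfb. It rose 5.30-fold, from 7.952 ± 0.215 to 42.17 ± 3.31 TPM (SD, n = 3 each), a log2 change of 2.27 with an SE of 0.08 (limma adjusted p = 6.32e-06). Bmpr2 stood at 9.42, 8.72 and 7.01 TPM in controls and at 28.26, 25.85 and 24.38 TPM with Tgfb, a log2 change of 1.54 (SE 0.12, limma adjusted p = 9.53e-05). Tgfbr2, the receptor that binds Tgfb, stood at 40.55, 42.26 and 36.54 TPM with Tgfb against 16.35 to 17.99 in controls, a log2 change of 1.15 (SE 0.08, limma adjusted p = 6.28e-05). In all 3 genes every Tgfb sample lay above every control, and the calls held in the 12 alternatives run. The share of all genes without overlap was not counted here either.

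Tgfbr1 stood at 20.89, 18.38 and 18.90 TPM with Tgfb against 14.51 to 16.29 in controls, without overlap. Its log2 change was 0.31 (SE 0.08, limma adjusted p = 0.0164), with an adjusted p of 0.0502 without control I. Bmpr1a stood at 44.37, 50.09 and 45.20 TPM with Tgfb, a log2 change of 0.06 with a 95% interval of -0.12 to 0.23. Acvr1b stood at 20.12, 16.72 and 16.22 TPM (-0.11) and Acvr2a at 14.85, 12.93 and 13.00 TPM (0.23), both overlapping with controls. Without control II, Acvr2a passed (0.31, limma adjusted p = 0.0467). Acvr2b stood at 1.61, 1.70 and 2.38 TPM, below the controls in all 3 samples, with a log2 change of -0.32 that did not pass (limma adjusted p = 0.111), but did without Tgfb I (-0.44, adjusted p = 0.0498). In the same samples the crypt stem and cycling markers summed to 2587 to 3031 TPM in controls and 194.5 to 198.6 TPM with Tgfb, and the mesenchymal markers to 5.13 to 8.261 and 7.194 to 9.504 TPM. Col1a2, Col3a1, Dcn and Lum were at 0 in all 6 samples.

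Read as shares of a receptor class, Tgfb shifted the type I class of organoids from 1 leading receptor to a pair. A class here holds only the type I or type II receptors followed in this report, so other receptors of the superfamily are not in the sums. Bmpr1a made up 51.2% ± 1.0 of the summed type I TPM in controls and 37.0% ± 2.48 with Tgfb (SD, n = 3 each), while Acvr1 went from 9.12% ± 0.146 to 33.5% ± 1.01. Acvr1b went from 21.9% to 14% and Tgfbr1 from 17.7% to 15.4%. The class sum was 87.2 ± 3.74 TPM in controls and 126 ± 6.18 TPM with Tgfb, so the Bmpr1a share moved without a call in Bmpr1a itself. Fresh mesenchymal cells held 33.2% Bmpr1a, 30.4% Acvr1, 25.6% Tgfbr1, 5.52% Acvr1b and 5.28% Bmpr1b, and immortalised cells 36.0%, 34.9%, 15.2%, 5.61% and 8.27%.

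In the type II class, Tgfbr2 made up 43.6% ± 1.57 in controls and 48.8% ± 1.94 with Tgfb, and Bmpr2 went from 21.0% ± 1.84 to 32.1% ± 0.962. Acvr2a went from 28.9% ± 2.07 to 16.7% ± 0.941 and Acvr2b from 6.54% ± 0.502 to 2.35% ± 0.67. The class sum was 39.8 ± 3.01 TPM in controls and 81.4 ± 4.62 TPM with Tgfb. Tgfbr2 made up 63.7% in fresh mesenchymal cells and 39.1% in immortalised cells, where Bmpr2 led with 42.4%.

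**Figure D4:**
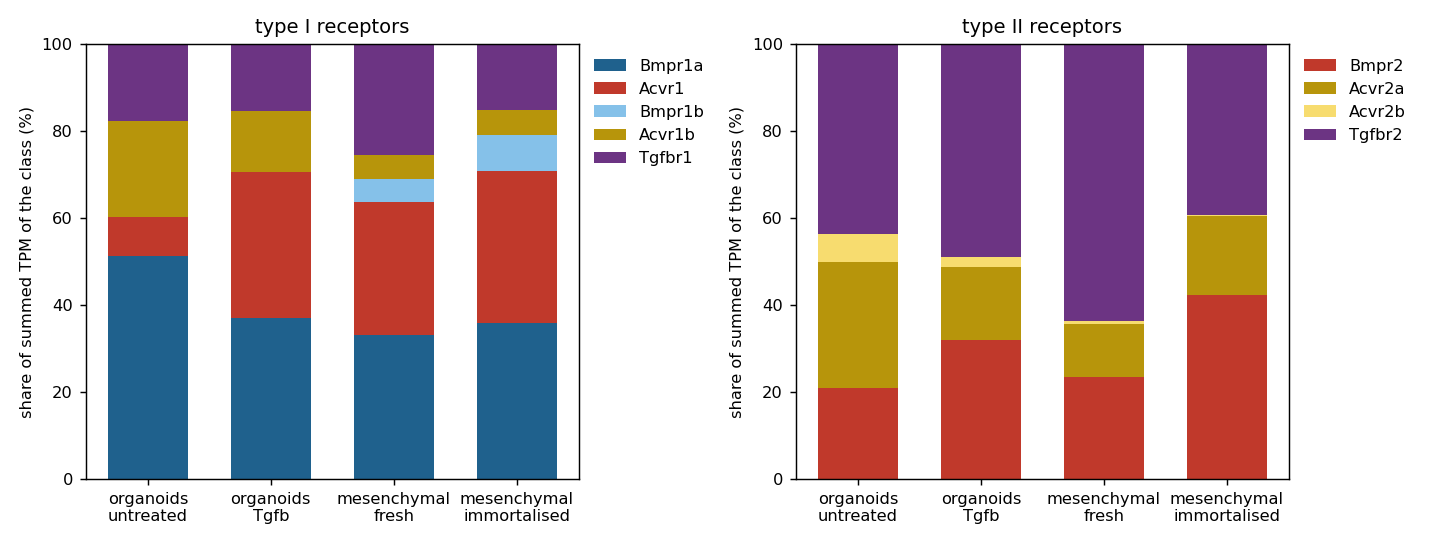
Share of the summed TPM of the type I class (left) and type II class (right) held by each receptor, in percent, for untreated and Tgfb-treated organoids (means of 3 samples) and 1 fresh and 1 immortalised mesenchymal sample. Only the receptors followed in this report enter the sums. Acvr1 widens from 9.12% to 33.5% of the type I class with Tgfb, and Tgfbr2 holds 63.7% of the type II class in fresh mesenchymal cells.

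A ratio of 2 receptors within a sample does not depend on a factor applied to the whole sample, though quantile normalization, which is no such factor, does change it. The BMP table is not per length, so only changes of a ratio between groups are read. The log2 ratio of Tgfbr1 to Bmpr1a was -1.59 ± 0.147 in controls (SD, n = 4), -0.815 ± 0.243 with BMP2 (n = 4) and -2.41 ± 0.239 with BMP4 (n = 3). The 3 groups did not overlap, with controls from -1.78 to -1.47, BMP2 from -1.08 to -0.542 and BMP4 from -2.69 to -2.26. With BMP5 the ratio was -1.40 and with BMP7 -1.41, both overlapping with controls. The log2 ratio of Tgfbr2 to Bmpr2 ran from 0.0747 to 0.93 in controls and from -0.717 to 0.122 with BMP2, so the groups overlapped. A ratio added after the values were seen, Acvr1 to Bmpr1a, was -3.52 ± 0.131 in controls and -0.784 ± 0.138 with BMP2. In the BMP3 samples it was -3.51 ± 0.0834, in the BMP4 samples -3.12 ± 0.171, in the BMP5 samples -2.12 ± 0.452 and in the BMP7 samples -1.80 ± 0.206. In TPM it was -2.49 in untreated and -0.144 in Tgfb-treated organoids, beside -0.128 in fresh and -0.0426 in immortalised mesenchymal cells.

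**Figure D5:**
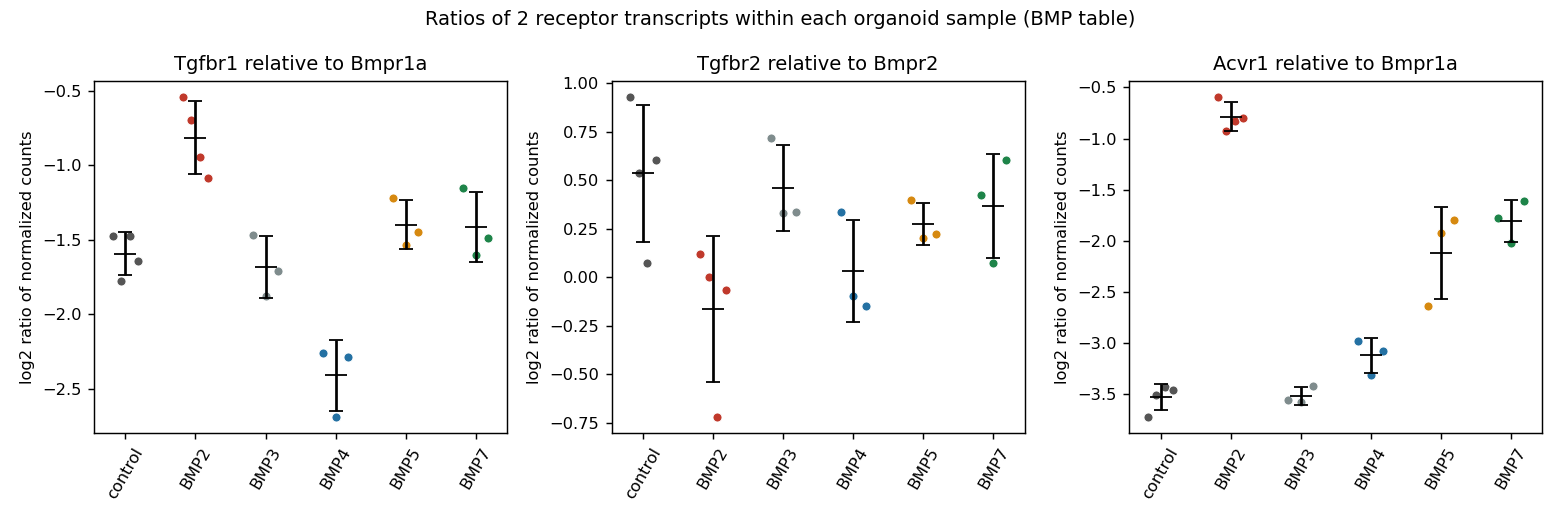
Log2 ratio of the normalized counts of 2 receptors within each organoid sample of the BMP table (vertical axes), by ligand (dots are samples, dash and whiskers are mean and SD). Tgfbr1 relative to Bmpr1a goes up with BMP2 and down with BMP4, and Acvr1 relative to Bmpr1a orders the groups from controls through BMP4, BMP5 and BMP7 to BMP2.

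The other genes of the pathway were taken from lists of receptors, regulators and Smads. Of 10 other receptors and coreceptors, 4 could be tested in the BMP table, and 2 were lower with each of BMP2, BMP4, BMP5 and BMP7 while 0 were higher. Over all genes, 38.4%, 31.4%, 9.87% and 13.2% were lower with these ligands, so 2 of 4 is near the background with BMP2. Rgmb, a BMP coreceptor, fell from 3535 ± 241.7 normalized counts in controls (n = 4) to 502.5 ± 39.42 with BMP2 (n = 4) and 369.7 ± 25.79 with BMP4 (n = 3). Its log2 change was -2.81 with BMP2 and -3.25 with BMP4, then -1.43 for BMP5 and -2.0 for BMP7. Under Tgfb the change was -3.01, where it went from 66.59 to 7.594 TPM (limma adjusted p from 1.38e-11 to 3.92e-05). The other was Acvr1c (ALK7), named after its values were seen, with log2 changes of -3.85, -2.32, -0.83 and -1.31 for BMP2, BMP4, BMP5 and BMP7.

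Of 20 regulators that act at the receptors, 19 were tested. BMP2 had 12 of them higher and 5 lower, BMP4 12 and 3, BMP5 7 and 1, BMP7 10 and 1, and Tgfb 11 and 1. Over all genes 75.1% were called in either direction with BMP2, 65.1% with BMP4 and 56.7% with Tgfb, so most of any list would be called there. With BMP5 and BMP7 the shares were 26.3% and 32.4%. The median log2 change of the list was 0.97 with BMP2, 0.52 with BMP4 and 0.40 with Tgfb. Pmepa1, which holds back Smad2 and Smad3, gave the smallest p with BMP2 (log2 change 4.48), BMP5 (3.38), BMP7 (3.65) and Tgfb (5.10), going from 6.155 to 244.2 TPM with Tgfb. Smad7, an inhibitory Smad that binds type I receptors, gave the smallest p with BMP4 (3.65). Ldlrad4, another inhibitor of Smad2 and Smad3 activation, separated BMP2 from BMP4 most, at 661.5 ± 20.82 against 21.17 ± 6.309 normalized counts, a log2 difference of 4.94 (limma adjusted p = 8.52e-13).

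Of the 6 Smads that receptors activate or that join them, BMP2 had 4 higher and 0 lower, BMP4 1 and 2, BMP5 3 and 0, and BMP7 4 and 0, and of 5 tested in TPM, Tgfb had 3 and 1. With BMP2 and BMP4 these counts are at or below the 75.1% and 65.1% of all genes called. The shares of all genes called with BMP5, BMP7 and Tgfb were 26.3%, 32.4% and 56.7%. Smad2 had the smallest p with BMP2 (log2 change 1.08) and Smad3 with BMP5 (0.68), BMP7 (0.77) and Tgfb (1.23). Smad5, of the BMP branch, had the smallest p with BMP4 and fell from 1200 ± 82.87 to 592.3 ± 48.19 normalized counts, a log2 change of -1.02 (limma adjusted p = 2.27e-08). Id1, a direct target of BMP Smads, rose with 4 of the 5 BMPs, by log2 changes of 4.41 for BMP2, 4.30 for BMP4, 2.65 for BMP5, 3.80 for BMP7, and for Tgfb by 2.75 (limma adjusted p from 4.16e-13 to 5.29e-05).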

How the data were processed

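Per the labels' protocols, a KAPA mRNA kit gave the libraries, which were read as single ends. The submitters' processing notes name Trim Galore, Salmon, DESeq2 and GRCm39, with roles and versions not given in the sources used here. The BMP table's deposited values are a signal, gene counts divided by a size factor per sample and kept to 3 significant digits. This was read from the values, since 100% of 180721 values at or below 20 reads were whole reads within 0.1 read. The other deposited tables are TPM, since each column sums to 1000000, and keep no depth.

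Tests were two-sided, by limma 3.58.1 (R 4.3.3) of log2 values after adding 1, over genes with a mean of at least 10 (14746 genes, all 20 samples of the BMP table in 1 fit) or 1 TPM (12959 genes, TGFb table). A log2 fold change on this scale understates low genes. The design foresaw edgeR for raw counts, and no table held them. Alternatives were a pseudocount of 0.1, no filter, a filter of 50 or 10, scaling to the same total, quantile or median-ratio scaling, edgeR 4.0.16 and DESeq2 1.42.0 on recovered reads, the compared groups alone, the replicate number as a block, and leaving out each replicate. The scripts were tested on simulated data. The mesenchymal samples have no replicates, and were compared past 2-fold with no test. Sequencing used more than 1 run, not assigned to samples in the labels, so run and group cannot be told apart.

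Replicate numbers come from the titles. Deviations of same-numbered samples correlated by 0.15 or more in every pair for BMP3, BMP4, BMP5 and BMP7 against control and BMP5 against BMP7. These comparisons were therefore judged to be paired. The main tests did not use the pairing, so their p-values are unpaired. The replicate number as a block was run only as an alternative. For BMP2 and Tgfb the lowest pair was at 0.0182 and 0.00405.

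The receptors and gene lists were chosen with earlier results of these data known. All 10 receptors are named, and of each other list the gene with the smallest p in a comparison. Acvr1c and the ratio of Acvr1 to Bmpr1a were added after seeing values.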

Additional observations from a re-analysis of the deposited data

Results flagged for a closer look

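Of 20 groups of 4 samples that were checked for a sample far from the others, 3 were singled out, and chance singles out about 1 in 20. Acvr1b with BMP2 had a lowest sample (replicate II, 1630 normalized counts) whose gap to the next sample was 0.843 of the range. Acvr2b in the controls had a lowest sample (replicate VI, 89.2 normalized counts, the others 124 to 127) with a gap of 0.921. Bmpr1b in the controls had 1 sample with reads (replicate IV, 1.77 normalized counts), so its gap was 1 of the range, at a level of 2 reads.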

How the results depend on the processing

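Of 28 receptor calls over 7 comparisons, 22 kept their direction and stayed past the threshold in every alternative run. The 6 that did not were Acvr1b and Acvr2a with BMP2, Acvr1, Acvr1b and Bmpr2 with BMP4, and Tgfbr1 with Tgfb. With the same total, Bmpr1a was at -0.41 and Acvr2a at -0.04 with BMP2, Bmpr1a at -0.27 and Acvr1b at -0.04 with BMP4, and Bmpr2 at 0.02 for BMP5 against BMP7. With quantile scaling, Bmpr1a was at -0.47 with BMP2, -0.33 with BMP4 and -0.03 with Tgfb, Acvr2b at 0.27 with BMP2, Acvr2a at -0.00 with BMP5, and Bmpr2 at 0.05 for BMP5 against BMP7. The same-total values for BMP2 and BMP4 follow the shift of all genes, and for the rest the cause was not tested.

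Genes called for BMP3 were 0, but 1 by DESeq2, 6 with the 2 groups alone and 0 to 1 leaving out a replicate. Genes called for BMP5 numbered 3884, and 2517 to 4301 leaving out a replicate, with the lowest counts without BMP5 III (2517) and BMP5 VI (2531). For BMP5 against BMP7, 2 genes were called, but 0 with a pseudocount of 0.1, 4 with no filter, 0 with a filter of 50, 1 with the same total, 1 with quantile scaling, 6 with the replicate block, 4 by edgeR, 23 by DESeq2 and 0 to 9 leaving out a replicate. The replicate block turned Acvr1b with BMP5 to 0.03, called Acvr2a with BMP7, and changed no other receptor call. Leaving out a replicate turned these values, none of them called: Tgfbr2 -0.26 to 0.14 with BMP4, then Bmpr1a -0.06 to 0.07, Acvr1b -0.10 to 0.06, Acvr2b -0.28 to 0.01 with BMP5, then Bmpr1a -0.09 to 0.03, Acvr1b -0.19 to 0.00, Tgfbr1 -0.02 to 0.24 with BMP7, then Bmpr1a -0.12 to 0.01, Acvr1b -0.05 to 0.20 for BMP2 against BMP4, then Bmpr1a -0.03 to 0.10, Acvr1b -0.01 to 0.17, Tgfbr1 -0.10 to 0.20, Bmpr2 -0.20 to 0.09, Tgfbr2 -0.17 to 0.01 for BMP5 against BMP7. Depth limits Bmpr1b and Tgfbr3 in organoids, and is unknown in the TPM tables.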

Other observations

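The genes whose profile over the 20 samples of the BMP table was most like that of a receptor were looked up among 11856 genes with a mean of at least 50 normalized counts. The measure was Pearson's r of log2 values, given as a description, since the 20 points include the replicates of 6 groups and come from 1 table. Acvr1 was most like Myo1c and Itgav (r = 0.994 for both), genes of a membrane-linked myosin and of the integrin alpha v chain. Bmpr2 was most like Mast4 (0.979) and Iqgap1 (0.973), and Tgfbr2 like Amotl2 (0.960) and Chic2 (0.959). Tgfbr1 was most like Vps72 (0.970) and Ubald1 (0.968). Acvr2a was most like Tom1l2 (0.985) and Lonp2 (0.983), and Acvr2b like Gigyf1 (0.944) and Nsmaf (0.933). Acvr1b was most like Kctd21 (0.940) and Gpatch8 (0.931), and Bmpr1a reached only 0.766 with Mtmr3 and 0.743 with Zbtb18.

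Between receptors, r was 0.954 for Acvr1 with Bmpr2, 0.878 for Acvr1 with Tgfbr2, 0.872 for Bmpr2 with Tgfbr2, and -0.786 for Acvr2a with Acvr2b. In an annotation of another build, Acvr2a overlaps Orc4 on the opposite strand. Orc4 measured 891 normalized counts in controls, 1018 with BMP2 and at most 1070 in any sample, against 1730 to 1990 for Acvr2a with BMP4. The use of strand in counting is not given in the sources used here, and a share of Orc4 reads in Acvr2a was not tested.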
